A study of Caenorhabditis elegans with 2 samples.

Results

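The nuclear genes of the mitochondrial respiratory chain were examined for binding of the transcription factor LET-607. The set held 40 of the 19973 nuclear protein-coding genes of the worm Caenorhabditis elegans. The list was chosen with earlier results of these data known, and its members were taken by symbol from the WBcel235 gene models of Ensembl. They are the genes with a nuo-, cox-, atp- or ucr- symbol, plus isp-1, cyc-1, cyc-2.1, sdha-1, sdhb-1, sdhd-1, mev-1, gas-1 and lpd-5. The promoter window of a gene ran from 1000 bp before its 5′ end to 200 bp after it, and a gene with the summit of a reproducible LET-607 peak in this window was counted as bound. By this measure 11 of the 40 genes (27.5%) were bound, against 7.70% of all nuclear protein-coding genes. The bound genes encode parts of complexes II, III and IV, of the ATP synthase and of the cytochrome c oxidase assembly machinery. None of the 8 complex I genes that the naming rule takes was among them, while 10 of 27 further complex I genes outside the rule had a reproducible peak, and a list of 8 genes is too short to read a 0 against a share of 7.70%.

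The respiratory chain passes electrons from NADH and succinate through complexes I to IV to oxygen and pumps protons across the inner mitochondrial membrane, and the ATP synthase uses the proton gradient to make ATP. A few core subunits are encoded by the mitochondrial genome, while most subunits and all assembly factors are encoded in the nucleus and imported. LET-607 is a bZIP transcription factor of the CREB3 family, whose members are anchored in the endoplasmic reticulum until they are cleaved and are best known as regulators of secretory pathway genes. Sites on the genome were mapped by ChIP-seq (sequencing of the DNA that comes down with a protein in an immunoprecipitation) with an antibody against GFP, in whole hermaphrodites of the transgenic strain YL529, which stably expresses LET-607 with a GFP-FLAG tag at its C-terminus. The worms were young adults 67 h after synchronization as larvae of the first stage, which had been starved after bleaching, and formed 1 group with 2 biological replicates. Whole animals do not show which tissue a peak comes from, all animals carried the tagged protein, and a control group was not analysed here.

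The sequences at the summits of 5 bound members are shown because they hold, or lack, the core letters of sites for CREB-type factors. They cover 50 bp to either side of the summit, 101 bases each, from the RefSeq genome sequence WBcel235, which has the coordinates of build ce11. All are printed 5′ to 3′ on the plus strand. The summit regions are chrIII:12905136-12905236 for cox-5A, chrX:15173639-15173739 for ucr-2.2, chrIII:10334104-10334204 for mev-1, chrX:12018072-12018172 for ucr-2.1 and chrIII:10218774-10218874 for cox-14. Capitals mark the letters TGACGT, that core, or TGACGC, which differs from it in the last base, on either strand (the minus-strand forms read ACGTCA and GCGTCA). The first 4 carry such a match, and no other of the 11 bound members' summits does. Of those without a match only cox-14 is shown, as the most AT-rich of the members' summits.
cox-5A: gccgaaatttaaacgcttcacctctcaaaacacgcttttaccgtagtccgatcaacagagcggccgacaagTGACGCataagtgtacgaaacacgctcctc
ucr-2.2: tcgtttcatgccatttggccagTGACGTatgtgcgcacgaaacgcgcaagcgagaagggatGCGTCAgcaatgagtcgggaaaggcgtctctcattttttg
mev-1: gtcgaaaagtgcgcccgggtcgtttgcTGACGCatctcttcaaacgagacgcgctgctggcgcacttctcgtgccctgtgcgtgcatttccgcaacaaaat
ucr-2.1: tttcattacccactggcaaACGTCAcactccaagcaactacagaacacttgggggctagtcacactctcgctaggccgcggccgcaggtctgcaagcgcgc
cox-14: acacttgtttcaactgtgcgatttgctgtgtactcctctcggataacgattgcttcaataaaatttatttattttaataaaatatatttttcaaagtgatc

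TGACGT lay within 50 bp of 2 of the 11 member summits, ucr-2.1 and ucr-2.2, against 8.30% of the 2349 nuclear IDR summits. At ucr-2.2 it stood on the plus strand at chrX:15173661-15173666, with its centre 26 bp from the summit. At ucr-2.1 it stood on the minus strand, 29 bp from the summit. Within 25 bp of the summits no member had it, against 4.34% of all summits. TGACGC lay within 50 bp of 3 member summits, cox-5A (23 bp from the summit), mev-1 (21 bp) and ucr-2.2 (13 bp), against 6.51% of all summits; this sequence was added after the summit sequences had been read, so its count is a description of those sequences. GACGTG, TGACGTGG and TGACGTCA were at none of the 11, against 7.11%, 1.92% and 0.979% of all summits, and neither was CACGTG, against 8.39%. TGATAA, which intestinal zinc finger factors are known to bind, was also at none, against 16.9%. TGCAGT, which is TGACGT written backwards and served as a control, was at 1 member summit, that of atp-1, against 6.56%. GACGTG, TGACGTGG and TGACGTCA overlap TGACGT or share its letters, so these searches are not separate.

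Over the whole promoter windows, 11 of the 40 members held TGACGT (27.5%), against 32.6% of all protein-coding promoter windows, and 15 of the 40 held the backward control, against 36.0%. The share of member windows with TGACGT was thus not above that of all genes. TGATAA was in 26 of the 40 windows, against 72.0% of all, CACGTG in 4, against 18.4%, and TGACGC in 9, against 19.6%. The member summits had a median GC content of 52.5% (28.7% at cox-14 to 58.4%), against 44.6% at all nuclear IDR summits (15.8% to 73.3%), so the chance of finding a given letter order also differs between them. A match is a description of the letters, and no match says only that these letters are not in the window.

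The peaks come from 4 lists on build ce11. The list used to call a gene bound holds the 2372 peaks that passed the authors' threshold on the irreproducible discovery rate (IDR) of the 2 replicates. The relaxed lists, which keep weak peaks as well, hold 26463 (replicate 1), 22592 (replicate 2) and 26789 (pooled reads) peaks. No scale is stated for the authors' signal of a peak, so peaks were compared by rank within a list, where rank 1 is the strongest. The 2372 IDR peaks were the 2372 strongest of the pooled list, and the weakest had a signal of 78.2. Peaks of this list are called reproducible here, which does not mean that each was strong in both replicates. Of the 1538 genes with an IDR summit, 1525 had a relaxed summit of both replicates in the window. At rab-5, for example, the strongest had rank 1187 in replicate 1 and 17762 in replicate 2. No read counts were given, so the depth of the libraries is unknown. Genes are not replicates, and counts of genes describe this peak set, with no p-value.

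Beyond the 11 members in the IDR list, most other members had weaker peaks. A pooled relaxed summit lay in the window of 34 of the 40 members (85.0%), against 36.4% of all genes, and a relaxed summit of both replicates in that of 24 (60%), against 22.9%. Of the members with a pooled relaxed summit, 11 of 34 (32.4%) reached the IDR list, against 21.2% of all genes with one. Among the 29 members without an IDR summit, 13 had a relaxed summit in both replicates, 10 had a pooled one without both replicates, 2 (cyc-2.1 and ucr-2.3) had one in replicate 1 alone, and 4 (cox-16, cox-7C, nuo-2 and nuo-3) had none in any list. The median rank of the 11 IDR summits at members was 618, with a signal of 178, against rank 1087 and signal 129 for all 1538 genes with an IDR summit. In the pooled list the 23 members without an IDR summit had a median rank of 9927, against 10951 for all 5732 genes of that kind.

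**Figure D1:**
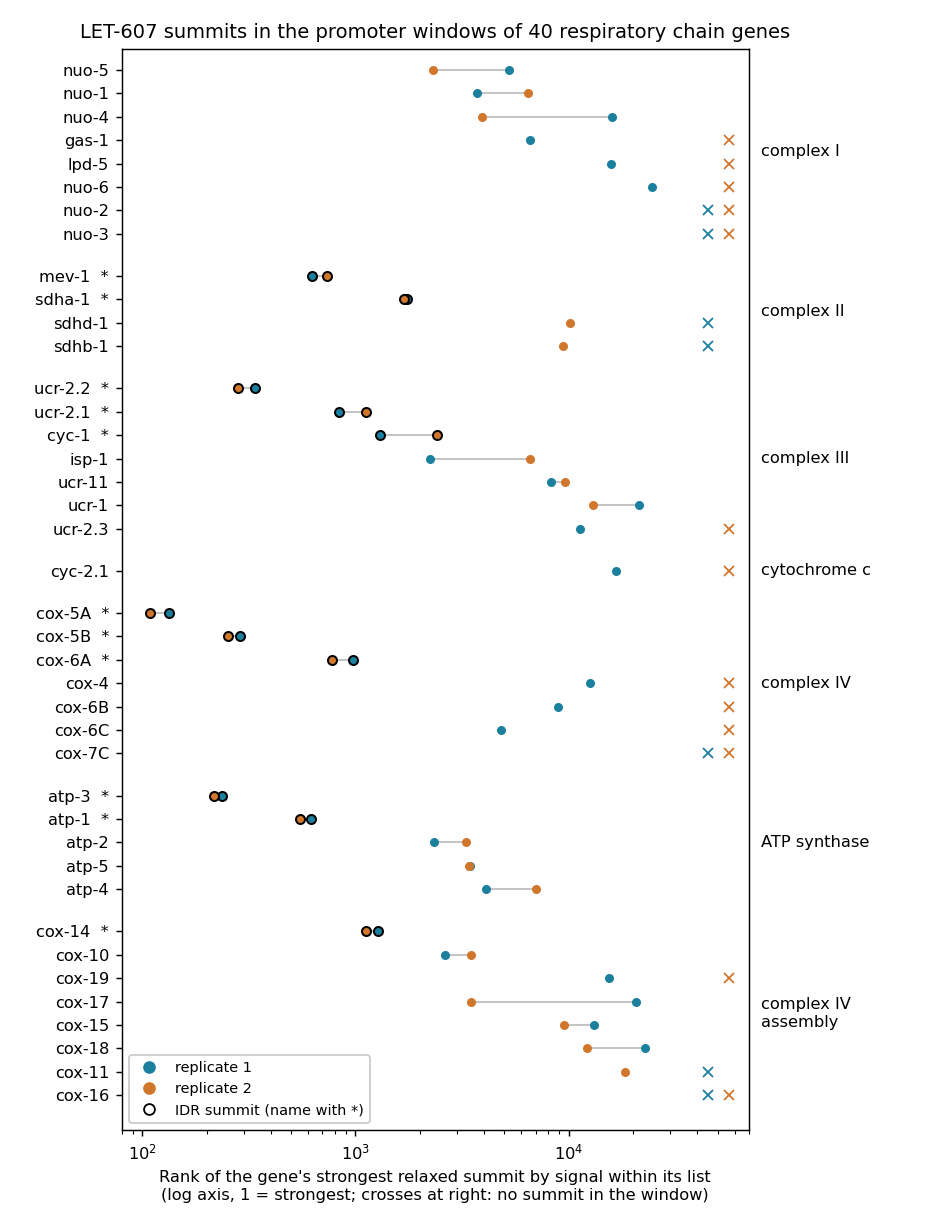
Rank by signal of the strongest relaxed summit in each member's promoter window, in replicate 1 and replicate 2 (log axis, 1 is strongest), with members grouped by complex, an asterisk and black outline for an IDR summit, and crosses for no summit. The 11 IDR members lie between rank 134 and 1736 in replicate 1 and between 109 and 2405 in replicate 2, while the complex I members start at 3713 and 2299.

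Complex IV, cytochrome c oxidase, hands the electrons to oxygen. It had the strongest peak of any member and 3 bound subunits of 7. The peak at cox-5A (chrIII:12905491-12906619, plus strand), a nuclear subunit of the enzyme, had a signal of 245 and rank 134 in replicate 1 and 252 and rank 109 in replicate 2. In the IDR list it had a signal of 495 and rank 122, with its summit 305 bp upstream of the 5′ end and no other gene in reach. The peak at cox-5B (chrI:9788725-9790050, plus), another nuclear subunit, had a signal of 149 (rank 286) in replicate 1 and 136 (rank 251) in replicate 2, and rank 281 in the IDR list, with its summit 26 bp upstream of the 5′ end. Both genes stood high in both replicates.

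The third bound complex IV gene, cox-6A (chrIII:5081724-5082995, plus), had signals of 76.7 (rank 978) in replicate 1 and 73.5 (rank 778) in replicate 2, and rank 930 in the IDR list. Its summit lay 789 bp upstream, the farthest of the members, and 37 bp from the small nuclear RNA gene F54D8.7, so the 2 genes cannot be told apart as the place of the peak. The subunit genes cox-4, cox-6B and cox-6C had a pooled relaxed summit of rank 7783, 12558 and 13260, each also called in replicate 1 and not in replicate 2, and cox-7C had none. By the 5′ ends of their gene models, the 7 genes thus split into 3 with strong peaks in both replicates and 4 with weak ones or none. For cox-6B this depends on the start chosen.

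The model of cox-6B is a case in which the annotation decides the count. Its gene model begins at chrIII:2699663, while another of its annotated transcripts begins at position 2786202, 86539 bp farther in. An IDR summit with a signal of 149 (rank 861 there, rank 1257 in replicate 1 and 660 in replicate 2) lay 141 bp upstream of that second start. The same summit was in reach of Y71H2AM.20 and of nduc-2, a complex I subunit gene. Which of the starts is used cannot be read from peak lists.

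Complex III passes electrons to cytochrome c, and 3 of its 7 genes were bound. The core protein gene ucr-2.2 (chrX:15173904-15178145, plus), whose summit sequence holds both a TGACGT and a TGACGC, had signals of 140 (rank 336) in replicate 1 and 128 (rank 282) in replicate 2, and 265 (rank 313) in the IDR list. Its summit lay 215 bp upstream of the 5′ end, between it and the end of ocr-3, a gene on the same strand 268 bp away. Its paralog ucr-2.1 (chrX:12018429-12021206, plus) had signals of 83.1 (rank 840) and 60.6 (rank 1119) in replicates 1 and 2, and rank 899 in the IDR list. That summit lay 307 bp upstream of ucr-2.1 and only 79 bp upstream of the divergent gene nmat-1, so nmat-1 has the nearer 5′ end. The third paralog, ucr-2.3, had a weak summit in replicate 1 alone (rank 11344).

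The gene for cytochrome c1, cyc-1 (chrI:8022674-8024422, minus), had signals of 65.0 (rank 1308) in replicate 1 and 38.5 (rank 2405) in replicate 2. It stood at rank 1535 of the IDR list with a signal of 104, 313 bp upstream of the 5′ end. Its 2 replicates differed most among the bound members, and it was not among the 2372 strongest peaks of replicate 2, which is the call without replicate 1. The Rieske iron-sulfur protein gene isp-1 showed a similar split below the threshold, with a signal of 46.7 and rank 2243 in replicate 1 and 23.0 and rank 6573 in replicate 2. Its pooled signal was 72.1 (rank 2656), and it would count as bound from replicate 1 alone, without replicate 2. The core protein gene ucr-1 and the small subunit gene ucr-11 had pooled ranks of 14606 and 9927.

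Complex II, succinate dehydrogenase, is shared with the citric acid cycle and has no subunit encoded in the mitochondrial genome. Of its 4 genes, mev-1 and sdha-1 were bound. The gene mev-1 (chrIII:10334277-10335168, plus), which encodes a cytochrome b membrane anchor and whose mutants are known for their sensitivity to oxidative stress, had signals of 98.4 (rank 625) in replicate 1 and 75.7 (rank 739) in replicate 2. In the IDR list it had rank 618 and a signal of 178, with its summit 123 bp upstream of mev-1 and 136 bp upstream of the divergent gene jmjd-4. The flavoprotein gene sdha-1 (chrX:8542757-8546021, minus) had signals of 54.7 (rank 1736) and 47.4 (rank 1691) in replicates 1 and 2, and with rank 1561 was the weakest bound member. Its summit lay 281 bp upstream and 98 bp from the small nucleolar RNA gene D2021.6. The iron-sulfur gene sdhb-1 and the anchor gene sdhd-1 had summits of pooled rank 18989 and 11816, called in replicate 2 and not in replicate 1.

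The ATP synthase was the complex in which all members had a relaxed summit in both replicates, 5 of 5, and 2 were bound. This count belongs to the 5 genes of the naming rule, and atp-5 left it when only the nearest protein-coding 5′ end was counted. In a list of 7 further ATP synthase and ATPase inhibitor genes, 5 (71.4%) had one in both replicates, against 22.9% of all genes. The peak at atp-3 (chrI:5428533-5429908, minus), which encodes a subunit of the stalk that links the catalytic head to the membrane, had signals of 168 (rank 237) in replicate 1 and 152 (rank 216) in replicate 2. In the IDR list it had a signal of 326 and rank 221, with its summit 43 bp upstream of atp-3 and 206 bp upstream of the divergent gene F27C1.2. The peak at atp-1 (chrI:12652277-12654655, plus), the catalytic head's alpha subunit, had signals of 98.9 (rank 620) and 89.8 (rank 551) in replicates 1 and 2, and rank 567 in the IDR list. Its summit lay 12 bp downstream of the 5′ end, in an untranslated exon of atp-1, and 202 bp upstream of the divergent gene mcrs-1.

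The other 3 ATP synthase genes had weaker peaks, outside the IDR list. The beta subunit gene atp-2 had a pooled signal of 75.9 (rank 2473), with 45.6 (rank 2338) in replicate 1 and 32.1 (rank 3293) in replicate 2. This was the strongest member outside the IDR list, 240 bp upstream of the 5′ end, and it would count as bound from replicate 1 alone, without replicate 2. The stalk subunit gene atp-5 had a pooled signal of 64.7 (rank 3098), with 35.4 (rank 3455) and 31.7 (rank 3390) in replicates 1 and 2. The coupling factor gene atp-4 stood at pooled rank 3968. The weakest members in the IDR list were cyc-1 and sdha-1, at ranks 1535 and 1561 of 2372 with a signal of 104 each, and no member lay closer to the weakest IDR signal of 78.2 from above. The members nearest to it from below were atp-2, isp-1 and the assembly gene cox-10.

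Complex I, NADH dehydrogenase, is the largest complex of the chain and is represented here by 8 of its genes, with 0 bound. The nearest to the threshold was nuo-5, which encodes the large iron-sulfur subunit at the entry of electrons. It had a pooled signal of 68.3 (rank 2874), with 27.9 (rank 5243) in replicate 1 and 39.6 (rank 2299) in replicate 2, so it would count as bound from replicate 2 alone, without replicate 1. The flavoprotein gene nuo-1, the subunit that accepts electrons from NADH, had a pooled signal of 54.6 (rank 3965), with 33.9 (rank 3713) and 23.2 (rank 6415) in replicates 1 and 2. The subunit genes nuo-4, gas-1, lpd-5 and nuo-6 had pooled ranks of 5564, 8232, 17633 and 24143, and nuo-2 and nuo-3 had no summit in any list. Of these 8 genes 3 had a relaxed summit in both replicates, as did 2 of 4 in complex II, 6 of 7 in complex III, 0 of 1 for cytochrome c, 3 of 7 in complex IV, 5 of 5 in the ATP synthase and 5 of 8 assembly genes. Over all genes the share was 22.9%, and groups this small were not compared by a test.

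This count of 0 belongs to the 8 genes of the naming rule and not to complex I as a whole. Many complex I genes carry symbols starting with ndua-, ndub-, nduc-, nduf-, ndus-, nduv- or ndab-, a list added after the data were examined. Of these 27 genes 10 (37.0%) had an IDR summit, against 7.70% of all genes. Of the 10, 8 shared it with another gene, against 46.7% of all genes with an IDR summit. The strongest was at ndua-2, with a signal of 742 and rank 79 (rank 78 in replicate 1 and 80 in replicate 2), 384 bp upstream of its 5′ end and also in reach of dnj-29 and fld-1. It was followed by nduf-2.2 (signal 261, rank 320), shared with dlc-1, by ndub-3 (243, rank 361), shared with sftd-3 and C18E9.2, and by ndua-8 (168, rank 685), shared with rbc-2 and Y54F10AM.15.

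Cytochrome c, the mobile carrier between complexes III and IV, was represented by cyc-2.1. It had no IDR summit in its window and a weak one in replicate 1 alone (rank 16641). An IDR summit with a signal of 135 (rank 1010 there, rank 1060 in replicate 1 and 800 in replicate 2) lay 383 bp inside its gene model. This is 180 bp upstream of another annotated transcript of the gene, which begins 563 bp farther in, and the summit was also in reach of tctn-1. With the starts of all transcripts counted, cyc-2.1 and cox-6B joined the bound members, which made 13 of 40, against 8.42% of all genes.

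Of the 8 cytochrome c oxidase assembly genes, which deliver heme and copper to the enzyme or help to build it, cox-14 was bound. This gene (chrIII:10218942-10222825, plus) had signals of 65.8 (rank 1279) in replicate 1 and 60.6 (rank 1120) in replicate 2, and 122 (rank 1194) in the IDR list. Its summit lay 118 bp upstream of cox-14 and 178 bp upstream of the divergent gene rde-4, an RNA interference factor. The heme synthesis gene cox-10 had a pooled signal of 70.7 (rank 2732), with 42.2 (rank 2626) in replicate 1 and 31.3 (rank 3486) in replicate 2. The others with a pooled summit were cox-19 (rank 9470), the copper chaperone gene cox-17 (10327), the heme A synthase gene cox-15 (10963), cox-18 (12619) and the copper factor gene cox-11 (24643), and cox-16 had no summit in any list.

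**Figure D2:**
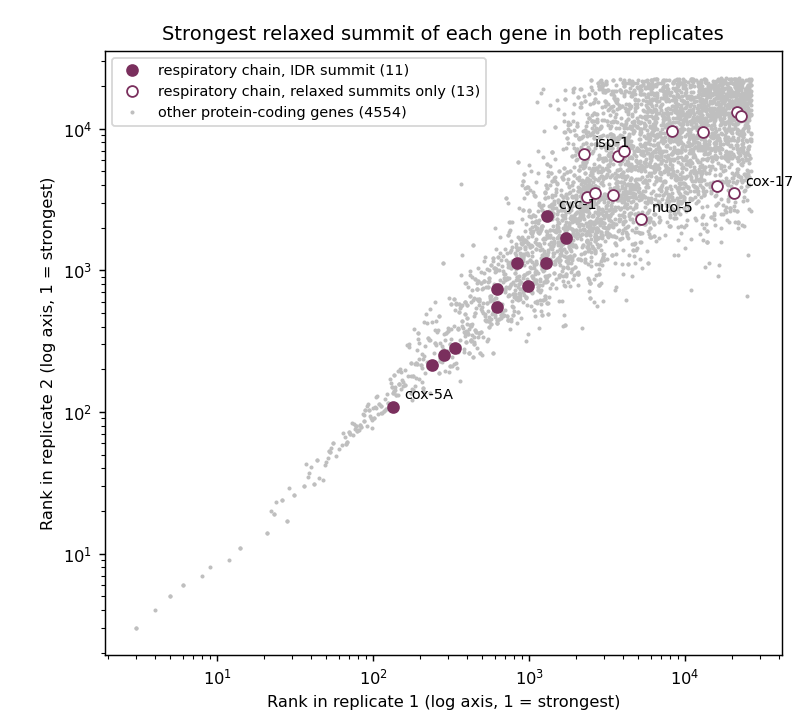
Rank of the strongest relaxed summit in each gene's promoter window, replicate 1 on the horizontal and replicate 2 on the vertical axis (log axes, 1 is strongest), for genes with a summit in both; filled circles are the 11 members with an IDR summit, open circles the 13 other members and grey dots other protein-coding genes. The filled circles lie close to the diagonal with cyc-1 farthest from it, and the open circles spread widely, with cox-17 at rank 20689 in replicate 1 and 3488 in replicate 2.

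The replicates placed the strong summits at nearly the same base. At all 11 bound members the summits of the 2 replicates were within 30 bp of each other, with a median distance of 12 bp (3 bp at cyc-1 to 27 bp at atp-1), against 57.6% and a median of 24 bp over the 1525 genes with an IDR summit and a summit in both replicates. At the 13 members with relaxed summits in both replicates and no IDR summit, the median distance was 52 bp, against 119 bp for all 3053 such genes. Summits at members lay a median of 215 bp upstream of the 5′ end, against 241 bp for all genes with an IDR summit, and 9 of the 11 (81.8%) were within 500 bp upstream, against 72.5% of all genes with an IDR summit. The summits of 10 of the 11 lay between protein-coding genes, with atp-1 as the exception, and no share over all IDR summits is given beside this.

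**Figure D3:**
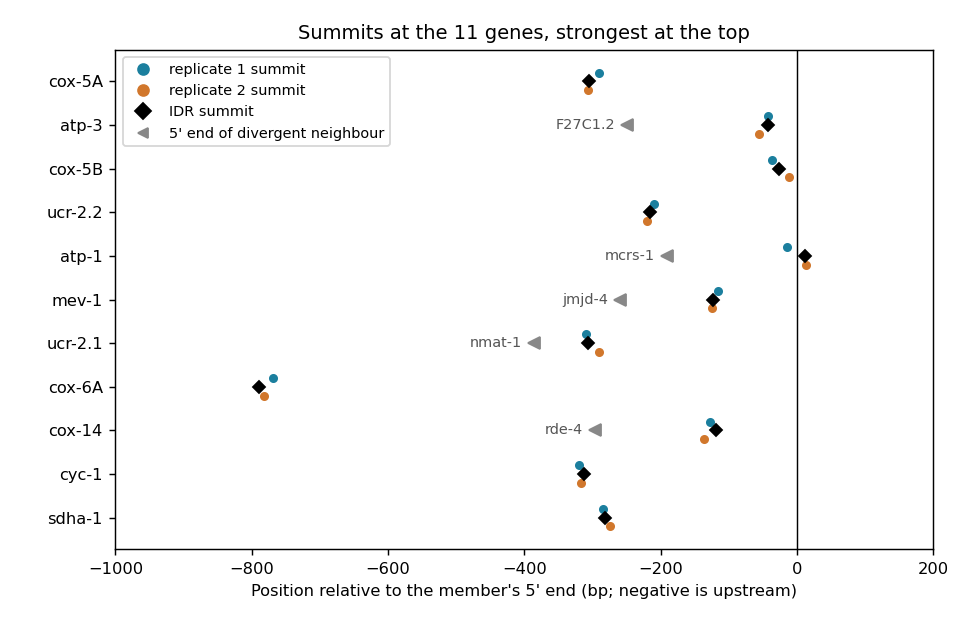
Position of the IDR summit (diamond) and of the strongest relaxed summit of replicate 1 and replicate 2 (circles) relative to the 5′ end of each bound member in bp, with grey triangles for the 5′ end of a divergent neighbour in reach. Replicate summits lie within 27 bp of each other at every gene shown, and 5 genes share the summit with a divergent neighbour.

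The members sit in crowded parts of the genome. The promoter window of 30 of the 40 (75.0%) overlapped that of another protein-coding gene, against 33.7% of all genes. The summit was shared with a divergent neighbour at 5 of the 11 bound members (atp-1, atp-3, cox-14, mev-1 and ucr-2.1), or 45.5%, against 46.7% of all genes with an IDR summit that shared it. Among protein-coding genes only, the member had the nearest 5′ end at 10 of the 11 (90.9%), against 75.1% of all genes with an IDR summit. The small RNA genes near the summits of cox-6A (37 bp away) and sdha-1 (98 bp) did not enter this count. For shared summits, the gene that the peak serves cannot be told apart. Where windows did not overlap that of another protein-coding gene, 5 of 10 members were bound, against 5.00% of all such genes. These 5 (50%) were cox-5A, cox-6A, cyc-1, sdha-1 and ucr-2.2. Small RNA genes did not count as an overlap, so cox-6A and sdha-1 are among them. Where windows overlapped another, 6 of 30 members were bound (20.0%), against 13.0%. Of the members 27.5% are on chromosome I and 25% on chromosome III, against 14.4% and 13.2% of all genes. The bound members are on I, III and X, and no share of all bound genes by chromosome is given beside this. A summit within 100 bp of a tRNA, small nucleolar or small nuclear RNA gene was found at 2 of the 11 bound members (18.2%), against 5.72% of all genes with an IDR summit.

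Several members lie behind another gene on the same strand. Such a gene ended within 500 bp upstream of 14 of the 40 members (35.0%), against 18.1% of all genes. Of these 14 members 3 (21.4%) were bound in their own window (cyc-1, sdha-1 and ucr-2.2), against 6.47% of all genes so placed, and of the 26 others 8 were (30.8%), against 7.97%. In 5 of the 14 runs (35.7%) an IDR summit lay at the first gene, against 14.6% of all genes so placed. The strongest was at rpl-20, a ribosomal protein gene followed after 111 bp by cyc-2.1, with a signal of 911 and rank 66. Next came dad-1 ahead of ucr-11 (539, rank 109), lin-54 ahead of cox-11 (531, rank 114), Y55F3AR.2 ahead of cox-18 (411, rank 154) and syf-2 ahead of nuo-4 (191, rank 548). Each summit was shared, in this order with Y17G9B.5, tre-1, rpl-12, cct-8 and K04G7.1. Of all genes with an IDR summit 46.7% shared it. The summit at lin-54 lay 369 bp upstream of lin-54 and 24 bp upstream of rpl-12. In none of these 5 runs did the member itself have an IDR summit in its own window. The runs are defined by position alone, were looked for after the data had been examined, and are not annotated operons.

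Set beside other mitochondrial gene lists, the bound share of the 40 members was intermediate. The IDR list held a summit for 11 of the 40 members (27.5%), against 10 of 20 genes of the citric acid cycle and pyruvate dehydrogenase (50%), 5 of 16 genes of mitochondrial protein import (31.2%), 2 of 8 of ubiquinone synthesis (25%), 1 of 4 adenine nucleotide carriers (25%) and 10 of 70 mitochondrial ribosomal protein genes (14.3%). Of mitochondrial stress and proteostasis genes 4 of 10 (40%) were bound, and of cytosolic ribosomal protein genes 45 of 78 (57.7%). The further complex I genes outside the naming rule had 10 of 27 bound (37.0%). Over all nuclear protein-coding genes the share was 7.70%. Summits shared with another gene account for 5 of the 11 bound members, against 4 of 10 bound citric acid cycle genes, 1 of 5 import genes, 1 of 2 ubiquinone genes, 1 of 1 carrier, 5 of 10 mitochondrial ribosomal genes, 2 of 4 stress genes and 31 of 45 cytosolic ribosomal genes. They account for 8 of the 10 bound further complex I genes, and for 46.7% of all genes with an IDR summit. The difference between the lists was not tested. The list of ATP synthase genes outside the naming rule, which includes ATPase inhibitor genes, had 1 of 7 bound. This was mai-1, an ATPase inhibitor homolog, with its summit 768 bp upstream. Of further respiratory chain and assembly genes 1 of 8 was bound (sco-1, a copper factor of complex IV).

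**Figure D4:**
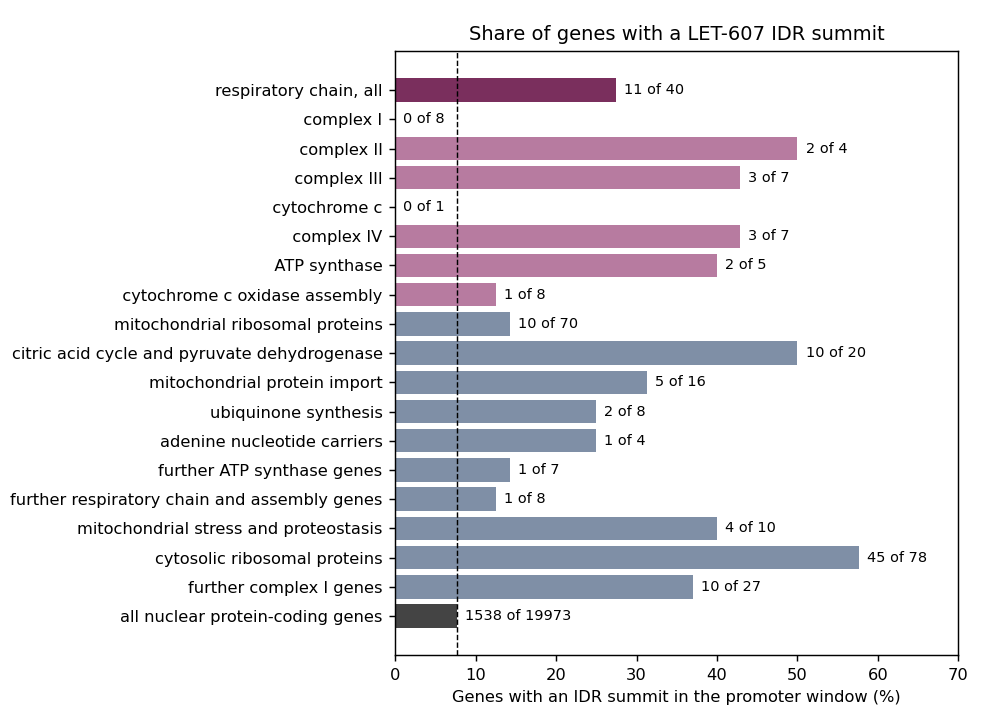
Share of genes with an IDR summit in the promoter window, in percent, for the 40 respiratory chain genes and their complexes above other gene lists and all nuclear protein-coding genes (dark grey bar; the dashed line marks their 7.70%). Counts stand beside the bars, and complex I (0 of 8) and cytochrome c (0 of 1) are the members' groups without a bound gene.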

How the data were processed

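LET-607 ChIP-seq peaks came from 2 biological replicates of 1 group, which the labels number. Per the deposited descriptions, the authors made relaxed narrowPeak lists for each replicate and for the pooled data, and the IDR list by a reproducibility threshold. What aligner and caller were used is not given in the sources used here. Signal values that the authors deposited for each peak served only as a rank within its list. The ce10 lists were not used here. Depth is unknown, and no interval that needs it is given.

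Summits were assigned to promoter windows (1000 bp upstream to 200 bp downstream of the gene model's 5′ end, Ensembl release 115), every gene in reach being counted. All 40 members had the same symbol in RefSeq. Sequences were searched on both strands. The members and gene lists were chosen with earlier results of these data known, so counts are given beside the share over all genes, with no test; the symbols ant-2, sdhaf-1 and sdhaf-2 matched no gene. Every bound member was named with values per list; of the others, the 6 with the highest pooled rank were given with values per replicate and the rest by pooled rank or name, and of each other list up to 4 bound genes were named. Other windows, transcript starts, overlap rules, thresholds and calls from 1 replicate alone (its 2372 strongest peaks in place of the IDR list) were tried. The assignment was tested on simulated data. Calculations used Python 3.11.15, numpy 2.4.6, pandas 2.3.3 and matplotlib 3.10.9. Coordinates are 1-based, on ce11.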

Additional observations from a re-analysis of the deposited data

How the results depend on the processing

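The count of 11 bound members ranged from 8 to 16 over the settings that kept all 40 genes. A window of 500 bp upstream left out cox-6A (10, against 6.19% of all genes). One of 2000 bp added cox-10, cyc-2.1 and ucr-11 (14, against 10.1%). Counting the nearest protein-coding 5′ end only left out ucr-2.1 (10, against 5.90%). The 1186 strongest IDR peaks kept 8 members, against 4.20% of all genes. Without replicate 1, 11 members were bound, with nuo-5 gained and cyc-1 lost, against 7.39%. Without replicate 2, 13 were bound, with atp-2 and isp-1 gained, against 7.74%. For relaxed summits, 24 members had one in both replicates, against 22.9%. Counting the nearest protein-coding 5′ end only lowered this to 20, against 18.6%. Dropping a replicate could not lower the count of 24, and gave 27 without replicate 1 (against 32.7%) and 33 without replicate 2 (against 35.8%). Chosen after seeing the data, counting the first gene of a same-strand run gave 16, against 9.86% of all genes, and leaving out summits near small RNA genes gave 9, against 7.26%.

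Settings that test fewer members gave lower counts by construction. Without members whose window overlaps another, 5 of 10 had an IDR summit (against 5.00% of all such genes), 10 of 10 a pooled relaxed summit (32.7%) and 9 of 10 one in both replicates (18.7%). Without members behind a same-strand gene, 22 of 26 had a pooled relaxed summit (against 34.4%) and 14 of 26 one in both replicates (21.9%). TGACGT was at 0 summits within 25 bp, in place of 2 within 50 bp, by the narrower window. No paired analysis was possible because there was 1 group. Peak lists without read counts or a control group do not show how strong binding is, and a missing peak does not show that a gene is unbound.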

Other observations

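Genes of the pathways that feed the respiratory chain had both strong and weak peaks. Of the citric acid cycle, sucl-1, a succinyl-CoA ligase subunit, had an IDR signal of 389 (rank 168) and cts-1, citrate synthase, 328 (rank 217). The gene aco-2, mitochondrial aconitase, had 162 (rank 745), with a summit also in reach of eef-1B.1. The gene dld-1, the lipoamide dehydrogenase shared by several complexes, had 97.3 (rank 1715). Among import genes, tomm-20, mppb-1, tomm-7 and timm-17B.1 had the highest signals, and among mitochondrial ribosomal protein genes mrpl-55, mrpl-23, mrps-35 and mrpl-28. The ubiquinone genes with an IDR summit were coq-5, which shared its summit with tomm-7 and ufm-1, and coq-3. Of the carriers it was ant-1.1, shared with abcf-2 and T27E9.2. The mitochondrial chaperonin gene hsp-60 had a signal of 335 (rank 210), shared with Y22D7AL.10. The other stress and proteostasis genes with an IDR summit were ymel-1, hsp-6 (shared with C37H5.5) and ubl-5. The cytosolic ribosomal protein genes with the highest signals were rps-18, rpl-1 (shared with Y71F9AL.9), rpl-3 and rpl-20 (shared with Y17G9B.5).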
